A study of Drosophila melanogaster with 12 samples.

Results

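The cell cycle and DNA replication genes described here are a fixed set of 43 named genes of Drosophila melanogaster, listed by name under their known roles. Of these, 30 have a probe set that the platform annotation assigns to 1 gene, out of 18769 probe sets on the array apart from controls. The 30 are 11 of 15 S phase genes, 12 of 19 genes of mitosis, and 7 of 9 regulators of G1 and of the G1 to S transition. Where a gene has several such probe sets, the one brightest on average stands for it. The other 13 are not analysed here, namely RnrS, Mcm7, Orc6, geminin, CycA, Cdk1, stg, polo, aurA, BubR1, pav, dap and E2f1, of which E2f1 shares its probe set with another gene.

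RNA came from eye imaginal discs of wandering larvae of the third instar, with the antennal part removed per the labels, in 4 groups of 3 arrays. Runt discs carried w; ro-Gal4/UAS-Run, so that wild-type Runt, a transcription factor, was expressed by a driver named after the eye homeobox gene rough. Runt G163R discs carried w; ro-Gal4/UAS-Run[G163R], the same driver with a Runt protein changed at 1 amino acid. The sens mutant discs were homozygous for the elements labelled sensDF2RES and sensE1 in a w background, and control discs were heterozygous for both, so the controls carry these elements too. No group lacks a transgene or mutant element, and the eye part of the disc was profiled whatever share of its cells used the driver. No label says whether replicates came from separate crosses. The p-values below thus take in only the variation among these arrays, and part or all of it may be technical.

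Cyclins bind and activate cyclin-dependent kinases, which drive cells from G1 into S phase and from G2 into mitosis. Before S phase the origin recognition complex and the licensing factor Cdt1 load the MCM helicase onto DNA, and the heterodimer of E2F and Dp, held back by the retinoblastoma protein Rbf, turns on many of the genes needed. In the eye disc, cells divide ahead of the morphogenetic furrow, arrest in G1 within it, and some divide once more behind it in the second mitotic wave, so such transcripts come from only part of the disc.

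All values are the submitters' log2 expression values, and a difference is a difference of group means on that scale. The median of an array was 2.60 to 2.68, since over 50% of its probe sets lie in a dense floor at log2 values below 3. Correlations were 0.988 to 0.997 between arrays of 1 group and 0.960 to 0.977 between arrays of different experiments. The 10 eye disc markers checked (such as eya, so and gl) had no member in the floor. Their list mean was 10.70 to 10.96 in Runt and Runt G163R arrays, against 10.35 to 10.68 in sens mutant and control arrays. The 7 markers of antennal and leg discs were also present, at list means of 7.05 to 8.51. All 30 members passed the filter on low values, which kept 11449 probe sets.

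**Figure D1:**
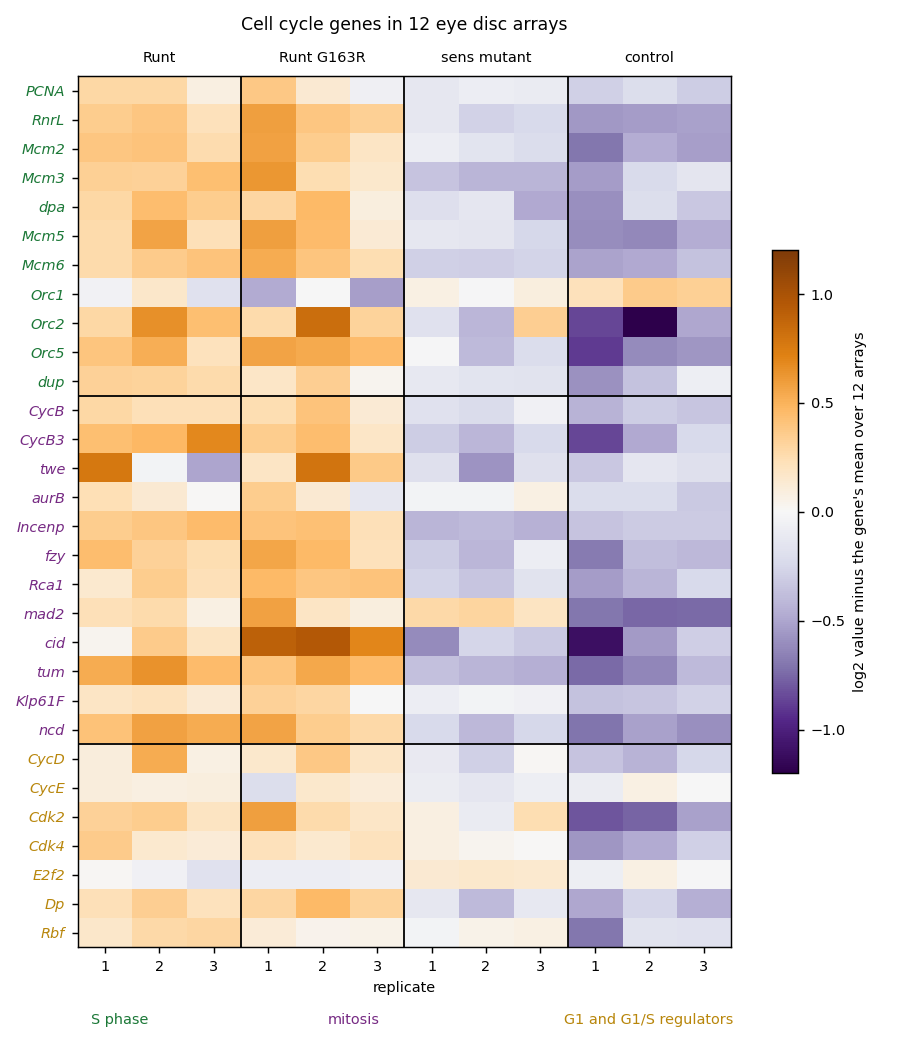
Each row is 1 of 30 cell cycle genes and each column 1 array, with colour giving the log2 value minus that gene's mean over the 12 arrays (clipped at the ends of the scale). Orange fills most rows of the Runt and Runt G163R arrays, and violet most rows of the control arrays, with sens mutant arrays between. For Orc1 and E2f2 the means of Runt and Runt G163R lie below those of both other groups. For 4 other members the sens mutant mean is the lowest.

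The Runt comparison asks whether eye discs expressing wild-type Runt differ from those expressing Runt G163R. None of the 30 members differed beyond the error of the test between these groups. Of all probe sets tested, 5 (0.0437%) were called, that is, had a limma adjusted p under 0.05, with 4 higher (0.0349%) and 1 lower (0.00873%) in Runt discs. Without adjustment 1 member, cid, had a limma p under 0.05, against 730 of 11449 probe sets. The median difference over the members was -0.01, with 14 above 0 and 16 below, beside -0.0007 over all probe sets tested. The 95% interval lay between -0.5 and 0.5 for 25 of 30 members, and between -1 and 1 for 28. The groups' arrays stood apart without overlap for 3 members, Rca1, cid and Rbf (10%, against 9.45% of all probe sets tested). In arrays of these eye discs, here and below, fewer cells of a type and less RNA per cell cannot be told apart.

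The replication genes lay close together in both Runt groups. PCNA, the sliding clamp of DNA polymerase, had log2 values of 11.66, 11.66 and 11.45 in Runt discs, against 11.75, 11.51 and 11.31 in Runt G163R discs. RnrL, the large subunit of ribonucleotide reductase, which makes deoxynucleotides, had 10.52, 10.56 and 10.39 in Runt discs, against 10.75, 10.56 and 10.50 in Runt G163R discs. Mcm2, a subunit of the MCM helicase, had 10.66, 10.68 and 10.53 in Runt discs, against 10.85, 10.62 and 10.45 in Runt G163R discs. In all these genes the Runt arrays lay within or close to the range of the Runt G163R arrays. The differences were 0.07 for PCNA (95% interval -0.15 to 0.29), -0.12 for RnrL (-0.28 to 0.05) and -0.02 for Mcm2 (-0.24 to 0.20).

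Among the other S phase members the differences ran from -0.14 for Orc5 to 0.32 for Orc1, both subunits of the origin recognition complex. Orc1 had 7.12, 7.32 and 6.98 in Runt discs, against 6.69, 7.16 and 6.63 in Runt G163R discs. The groups overlapped, and the interval was -0.02 to 0.65 (limma adjusted p = 0.808).

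Among the mitosis genes, cid, which encodes the centromeric histone H3 variant, had the lowest difference. It stood at 3.73, 4.05 and 3.88 in Runt discs, against 4.60, 4.65 and 4.39 in Runt G163R discs. All Runt values lay below all Runt G163R values, and both groups sit near the floor. The difference of -0.66 (95% interval -1.08 to -0.23) did not pass the test (limma adjusted p = 0.592). Of 15 alternatives only array weights called it, at -0.64 (limma adjusted p = 0.0248). That setting called 464 of all probe sets tested in place of 5. Rca1, an inhibitor of the anaphase-promoting complex, stood at 10.15, 10.37 and 10.25 in Runt discs, against 10.47, 10.40 and 10.42 in Runt G163R discs. Here too the groups did not overlap, with a difference of -0.18 (interval -0.36 to 0.01, limma adjusted p = 0.815). fzy, the Cdc20 activator of the anaphase-promoting complex, differed by -0.08 in its brightest probe set, and another of its probe sets, near the floor, stood at 3.52, 2.87 and 4.26 in Runt discs, against 2.29, 2.44 and 2.35 in Runt G163R discs. In that dim probe set the groups did not overlap, and its difference of 1.19 (SE 0.257) did not pass the test (limma adjusted p = 0.372). twe, a Cdc25 phosphatase known for its role in meiosis, stood at 4.88, 4.08 and 3.61 in Runt discs, against 4.29, 4.90 and 4.48 in Runt G163R discs. Its values lie near the floor and spread over more than 1 unit in Runt discs, and its SE of 0.284 was the largest of the 30 (difference -0.37, limma adjusted p = 0.976).

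All 7 G1 regulators had intervals between -0.5 and 0.5 in this comparison. CycE, the cyclin that drives entry into S phase, stood at 9.82, 9.80 and 9.81 in Runt discs, against 9.52, 9.87 and 9.83 in Runt G163R discs. CycD, the G1 cyclin that partners Cdk4, stood at 9.06, 9.48 and 9.03 in Runt discs, against 9.11, 9.33 and 9.14 in Runt G163R discs. Rbf stood at 8.66, 8.77 and 8.78 in Runt discs, against 8.61, 8.54 and 8.54 in Runt G163R discs, apart by a small margin, with a difference of 0.18 (interval -0.11 to 0.46, limma adjusted p = 0.961). Leaving out any 1 of the 6 Runt and Runt G163R arrays called no member either, although without Runt replicate 3 the number of all probe sets called was 119 in place of 5.

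**Figure D2:**
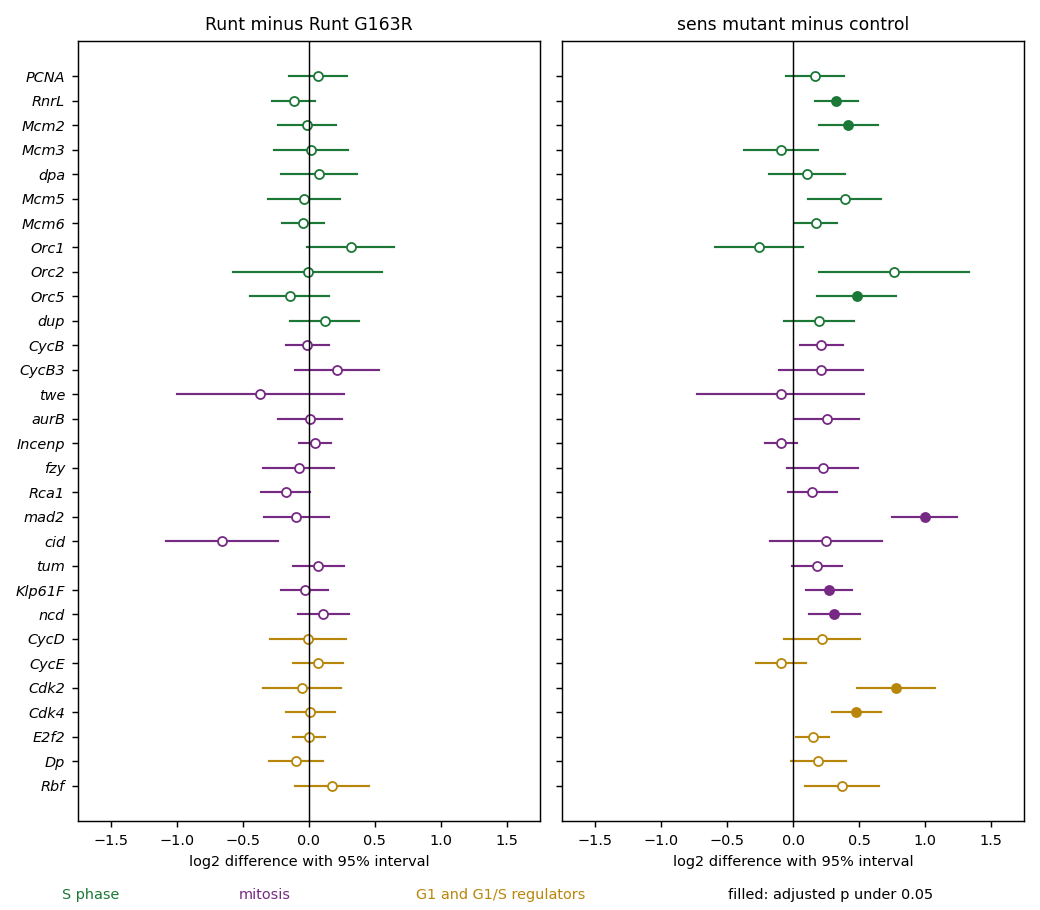
Points give the log2 difference of each member and lines its 95% interval from the limma fit, for Runt minus Runt G163R (left) and sens mutant minus control (right); filled points have an adjusted p under 0.05. No point is filled on the left; on the right 8 are, all above 0.

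The sens comparison asks what differs between discs homozygous for the sens mutant elements and heterozygous controls. In it 8 of 30 members were higher in sens mutant discs and none was lower. Of all probe sets tested, 11.6% were called higher and 5.31% lower; among the 4758 with a mean log2 value above 8, 16.4% were called higher. The median difference over the members was 0.22, with 25 above 0 and 5 below, beside 0.03 over all probe sets tested and 0.10 over those with a mean above 8. The arrays of the groups did not overlap for 18 members (60%), against 38% of all probe sets tested, dim ones included. An unadjusted limma p lay under 0.05 for 15 of 30 members. That held for 3548 of all 11449 probe sets tested and 1843 of the 4758 with a mean above 8.

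Among mitosis genes mad2 had the largest difference of the 30 members. It encodes a spindle checkpoint protein that delays anaphase until chromosomes are attached. Its log2 values were 9.68, 9.71 and 9.60 in sens mutant discs, against 8.70, 8.64 and 8.66 in control discs. The 3 control arrays stood close together and well below the mutants, and mad2 was higher in the mutants by 0.99 (1.99-fold, SE 0.111, limma adjusted p = 0.000394). The Runt and Runt G163R arrays lay at 9.64, 9.67 and 9.47 and at 9.98, 9.59 and 9.49, so the mutant arrays fell within the range of the Runt experiment and the controls stood apart from all other arrays.

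ncd and Klp61F, kinesin motors of the mitotic spindle, also rose, by less. ncd stood at 9.48, 9.31 and 9.46 in sens mutant discs, against 9.00, 9.19 and 9.12 in control discs, a difference of 0.31 (SE 0.0864, limma adjusted p = 0.0357). Klp61F stood at 9.64, 9.69 and 9.67 in sens mutant discs, against 9.36, 9.38 and 9.45 in control discs, a difference of 0.27 (SE 0.0785, limma adjusted p = 0.0418). The arrays of both genes separated the groups without overlap.

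The other 9 mitosis genes were not called. CycB, a mitotic cyclin, stood at 11.20, 11.15 and 11.32 in sens mutant discs, against 10.93, 11.07 and 11.03 in control discs, with a difference of 0.21 (limma adjusted p = 0.0744). aurB and Incenp encode 2 subunits of the chromosomal passenger complex and pointed in different directions. aurB stood at 9.34, 9.34 and 9.44 in sens mutant discs, against 9.16, 9.16 and 9.05 in control discs, a difference of 0.25 (95% interval 0.01 to 0.50). Incenp stood at 9.86, 9.89 and 9.84 in sens mutant discs, against 9.93, 9.97 and 9.97 in control discs, a difference of -0.09 (-0.22 to 0.03). Both separated the groups' arrays without overlap, and neither passed the test (limma adjusted p = 0.148 and 0.282). fzy had a difference of 0.22, tum, a subunit of the centralspindlin complex of cytokinesis, 0.18, and CycB3, another mitotic cyclin, 0.21. The fzy value is from the bright probe set of 3, since the other 2 lay at or near the floor.

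Among G1 regulators the kinases Cdk2 and Cdk4 rose in the sens mutant discs. Cdk2, the partner of CycE, stood at 8.22, 8.04 and 8.38 in sens mutant discs, against 7.32, 7.37 and 7.62 in control discs. Cdk4, the partner of CycD, stood at 9.64, 9.60 and 9.58 in sens mutant discs, against 9.00, 9.10 and 9.28 in control discs. In both genes every mutant value lay above every control value, and the differences were 0.77 for Cdk2 (1.71-fold, SE 0.132, limma adjusted p = 0.00396) and 0.48 for Cdk4 (1.39-fold, SE 0.0829, limma adjusted p = 0.00419). Their probe set names carry the suffix s, with which the manufacturer marks probes that may match more than 1 transcript, although the annotation gives 1 gene.

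The cyclins that these kinases bind, whose probe set names carry the same suffix, were not called. CycE stood at 9.63, 9.58 and 9.65 in sens mutant discs, against 9.63, 9.79 and 9.71 in control discs, so the groups overlapped and the difference was -0.09 (95% interval -0.28 to 0.10). CycD stood at 8.85, 8.67 and 8.97 in sens mutant discs, against 8.61, 8.52 and 8.70 in control discs, with a difference of 0.22 (-0.07 to 0.50). Rbf had a difference of 0.37 (limma adjusted p = 0.0735), Dp 0.19 and E2f2, the repressive E2F of the fly, 0.15 (limma adjusted p = 0.0989). E2f2 stood at 9.89, 9.92 and 9.90 in sens mutant discs, against 9.69, 9.83 and 9.74 in control discs, so that a small difference came with arrays that agreed closely and did not overlap.

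Among replication genes RnrL, Mcm2 and Orc5 rose in the sens mutant discs. RnrL stood at 10.04, 9.90 and 9.93 in sens mutant discs, against 9.61, 9.63 and 9.64 in control discs, with a difference of 0.33 (SE 0.0725, limma adjusted p = 0.0134). Mcm2 stood at 10.20, 10.12 and 10.06 in sens mutant discs, against 9.57, 9.81 and 9.74 in control discs, with a difference of 0.42 (SE 0.0988, limma adjusted p = 0.0175). Orc5 stood at 7.41, 7.03 and 7.22 in sens mutant discs, against 6.54, 6.82 and 6.86 in control discs, with a difference of 0.48 (SE 0.134, limma adjusted p = 0.0359). For all these genes the groups' arrays stood apart, and the sens mutant arrays lay below those of the Runt experiment.

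The differences of the MCM helicase subunits ran from -0.10 for Mcm3 to 0.42 for Mcm2, and were not tested against each other. Mcm5 stood at 8.99, 8.97 and 8.87 in sens mutant discs, against 8.51, 8.50 and 8.65 in control discs, a difference of 0.39 close to that of Mcm2 that missed the threshold (limma adjusted p = 0.0572). Mcm6 differed by 0.17 (95% interval 0.01 to 0.33), dpa, the Mcm4 subunit, by 0.11 (-0.18 to 0.39) and Mcm3 by -0.10 (-0.38 to 0.18). Mcm3 stood at 9.90, 9.82 and 9.83 in sens mutant discs, against 9.71, 10.02 and 10.10 in control discs, where the mutant arrays fell inside the range of the controls.

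The origin recognition subunits spread most widely. Orc2 stood at 5.56, 5.32 and 6.08 in sens mutant discs, against 4.89, 4.54 and 5.25 in control discs. Its difference of 0.76 was the largest of the S phase genes, and its groups did not overlap, but its SE was also the largest of these genes and it did not pass the test (SE 0.253, limma adjusted p = 0.0668). Orc1 pointed the other way, at 7.23, 7.15 and 7.25 in sens mutant discs, against 7.38, 7.52 and 7.49 in control discs, a difference of -0.26 (-0.59 to 0.07, limma adjusted p = 0.272). PCNA had a difference of 0.16 and dup, the fly Cdt1, 0.19, neither called.

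**Figure D3:**
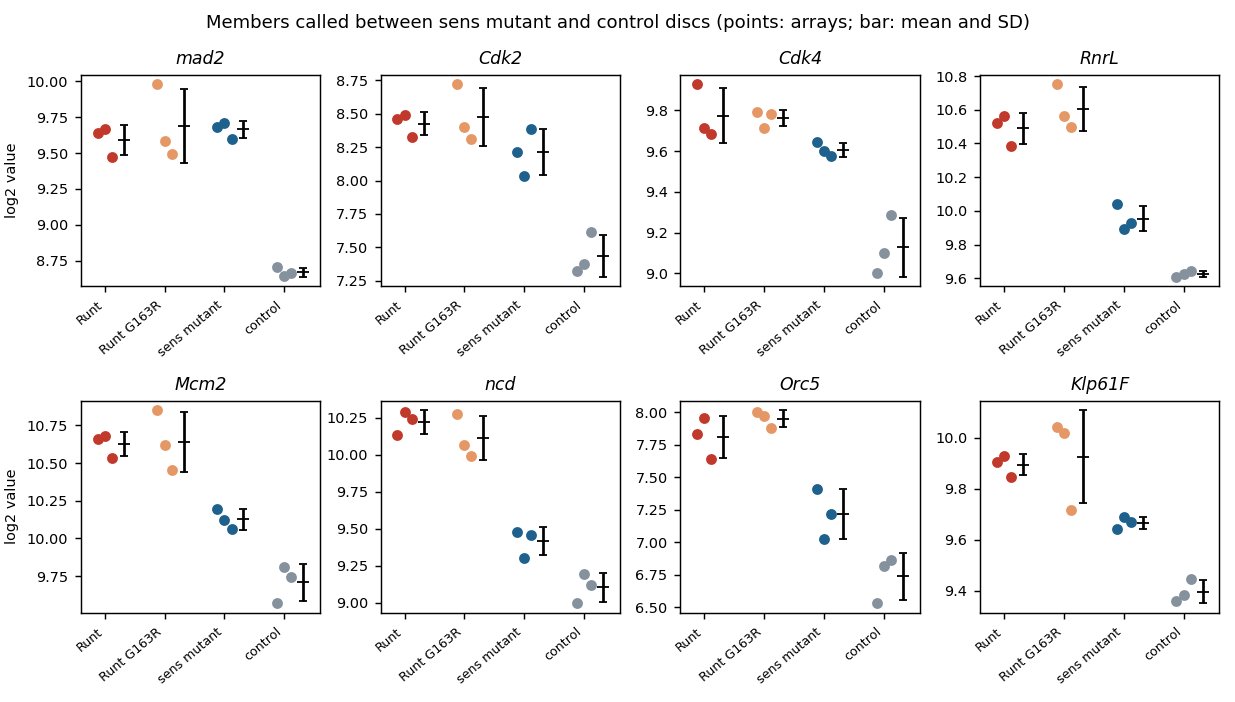
Log2 values in every array (points) with group mean and SD (bars) for the 8 members called between sens mutant and control discs, each on its own axis, which does not start at 0. For mad2 and Cdk2 the sens mutant arrays overlap the range of the Runt experiment, and for the other 6 genes they lie between it and the controls.

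How firm these 8 calls are differed by gene. mad2, Cdk2 and Cdk4 were called under all 16 alternatives run for this comparison, with differences of 0.83 to 1.04, 0.60 to 0.86 and 0.31 to 0.56. RnrL and Mcm2 kept their calls in 13 of 16 alternatives each. RnrL lost its call without sens mutant replicate 1, at 0.28 (limma adjusted p = 0.0556). It also lost it under a second quantile normalization, at 0.26 (limma adjusted p = 0.0848), and with array medians over the kept probe sets subtracted, at 0.16 (limma adjusted p = 0.22). Mcm2 lost its call without sens mutant replicate 1, at 0.38 (limma adjusted p = 0.0663), or without control replicate 1, at 0.35 (limma adjusted p = 0.0609). It also lost it with those medians subtracted, at 0.25 (limma adjusted p = 0.093). ncd, Orc5 and Klp61F kept theirs in 7 of 16 alternatives each. The number called was 3 without sens mutant replicate 1, 5 without sens mutant replicate 3 and 4 without control replicate 1, against 8 with all arrays. Over all probe sets tested the number called higher also fell, to 796, 862 and 852 in these settings, against 1332 with all arrays.

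The counts also moved with the scaling of the arrays. Subtracting each array's median over the probe sets kept shifted the median difference of all probe sets to -0.14, and that of the members to 0.05. With it mad2, Cdk2 and Cdk4 were called higher (3 of 30, against 4.87% of all probe sets), and Incenp, at -0.26 (adjusted p = 0.0429), and CycE, at -0.26 (adjusted p = 0.0488), were called lower (2 of 30, against 11.7%). A second quantile normalization gave a median of 0.13 over the members and 4 called higher, beside 6.44% of all probe sets higher and 6.32% lower. Subtracting the median over all probe sets of the array, chosen after seeing the data, gave 11 members higher, beside 15.3% of all probe sets higher and 4.49% lower. That median lies in the floor, at 2.60 to 2.62 in sens mutant arrays and 2.63 to 2.68 in control arrays.

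Of the 8 members called, 5 lie on chromosome 3, which also holds sens, on 3L. They are mad2 and Klp61F on 3L and Cdk2, Mcm2 and ncd on 3R. That is 5 of the 8 members on chromosome 3 (62.5%), against 15% of all named probe sets there that were called higher, or 19.2% of those with a mean above 8. On the other chromosomes 3 of 22 members were called (13.6%), RnrL and Orc5 on 2L and Cdk4 on 2R, against 11.6% of named probe sets, or 15.4% of those with a mean above 8. The share off chromosome 3 was therefore near the background. The median difference was 0.40 over the 8 members on chromosome 3 and 0.19 over the 22 others. The part of the chromosome in these differences was not tested.

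Genes listed as tissue markers also moved in this comparison, and these arrays cannot show in which cells. In the list of 6 brain and neuroblast markers 5 were lower in sens mutant discs, and its mean log2 value was 5.88 to 5.99 in mutant arrays, against 6.81 to 7.28 in control arrays. Of the 6, only wor averaged in the floor under 3 in sens mutant discs. mira, which partitions fate determinants in dividing neuroblasts, stood at 6.42, 6.58 and 6.22 in sens mutant discs, against 7.54, 7.89 and 7.71 in control discs. Of 7 antennal and leg markers 2 were lower, Dll and al, and 2 others had differences above 0, with list means of 7.70 to 7.96 in mutant arrays, against 8.19 to 8.51 in control arrays. Among all probe sets tested 5.31% were called lower and 11.6% higher. Of 10 eye disc markers 2 were higher (ey and toy) and 2 lower (gl and sev), and of 4 glial markers 1, moody, was higher. By limma 0 of 7 haemocyte, 0 of 3 fat body, 0 of 5 salivary gland and 0 of 1 muscle markers were called, with an unadjusted p under 0.05 for 1 haemocyte and 2 salivary gland markers. The median difference was 1.29 over the salivary gland markers and -1.05 over those of fat body. The part of these markers in the differences above was not tested.

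The sens and Runt contrasts were set against each other in the same fit. The difference was past the threshold for 4 of 30 members (13.3%), all with a larger value in the sens contrast. Of all probe sets tested 6.77% were called in that direction and 3.35% in the other. Among the 4758 with a mean above 8, 487 were called in that direction. For mad2 the sens contrast was 0.99 and the Runt contrast -0.09, a difference of 1.09 (SE 0.158, limma adjusted p = 0.0034). Cdk2 gave 0.77 and -0.05 (difference 0.83, limma adjusted p = 0.0235), Cdk4 0.48 and 0.01 (0.47, adjusted p = 0.0344), and RnrL 0.33 and -0.12 (0.44, adjusted p = 0.0255). mad2 alone was called under all 21 alternatives. The count was 1 without sens mutant replicate 1, without sens mutant replicate 3 or without control replicate 2. In these settings 425, 442 and 564 of all probe sets were called in that direction, against 775 with all arrays.

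The widest separation among the members was between the 2 experiments, that is, between the 6 Runt and Runt G163R arrays and the 6 arrays of the sens experiment. For 21 of 30 members (70%) every array of the Runt experiment lay above every array of the sens experiment, and for none below. Among all probe sets tested 13.9% lay above and 9.96% below, and 19.8% of those with a mean above 8 lay above. The median difference was 0.64 over the members, beside 0.01 over all probe sets tested. No test was made, since genotype, stock, and any difference in handling between the experiments cannot be told apart. The values that follow are a description.

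**Figure D4:**
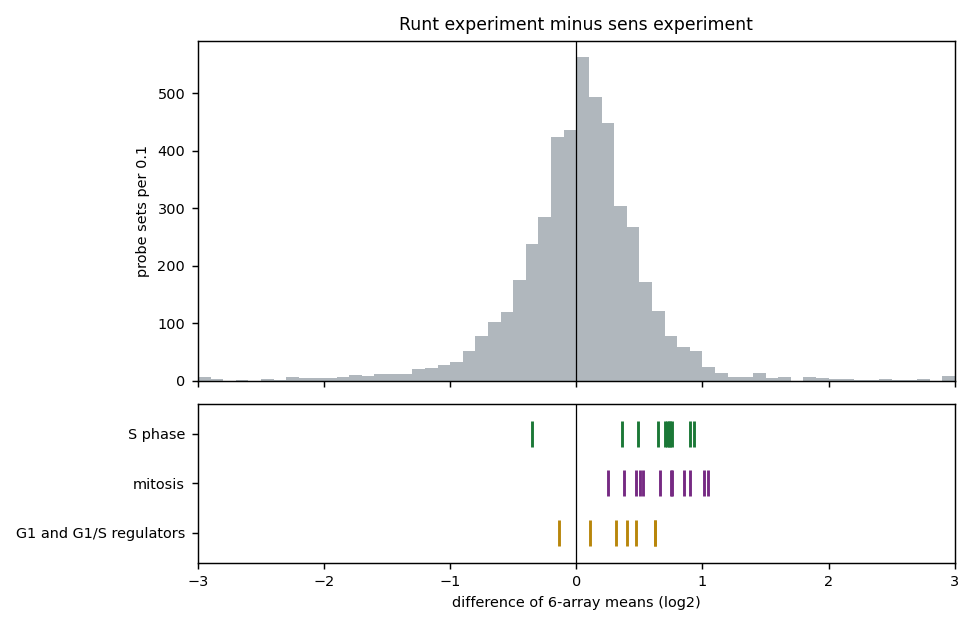
The upper panel counts probe sets with a mean log2 value above 8 by the difference between the means of the 6 Runt experiment arrays and the 6 sens experiment arrays (values beyond 3 in the end bars); ticks in the lower panel are the 30 members by role. The probe sets centre near 0, while 28 of 30 members lie above 0.

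Mitosis genes held the largest of these differences. tum averaged 10.54 ± 0.085 over the 6 Runt and Runt G163R arrays, against 9.53 ± 0.152 over the 6 arrays of the sens experiment (SD), a difference of 1.01. Incenp averaged 10.66 ± 0.0794 over the 6 Runt and Runt G163R arrays, against 9.91 ± 0.055 over the 6 arrays of the sens experiment, and its 6 arrays of each experiment were tight, with a difference of 0.75. ncd differed by 0.90, CycB3 by 0.85, fzy by 0.76 and Rca1 by 0.66, all without overlap. cid differed by 1.05, but its sens experiment values lie near the floor. mad2, aurB and twe were the 3 mitosis genes whose experiments overlapped.

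Among the S phase genes the MCM subunits lay close together. The 5 MCM subunits differed by 0.65 (dpa) to 0.74 (Mcm5), Mcm6 averaging 10.94 ± 0.103 over the 6 Runt and Runt G163R arrays, against 10.21 ± 0.106 over the 6 arrays of the sens experiment. RnrL differed by 0.76, Orc5 by 0.90, dup by 0.49 and PCNA by 0.37. In all 9 of these genes no array of the sens experiment reached the lowest of the Runt experiment. The exceptions were Orc2, at 0.93 with overlap, and Orc1, whose mean was lower in the Runt experiment (6.98 ± 0.274, against 7.34 ± 0.153 in the sens experiment, SD, n = 6 each).

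The G1 regulators were divided. Dp, CycD and Cdk4 separated the experiments, with differences of 0.62, 0.47 and 0.40. CycE averaged 9.77 ± 0.129 over the 6 Runt and Runt G163R arrays, against 9.66 ± 0.0752 over the 6 arrays of the sens experiment, a difference of 0.11 within the spread of the arrays. E2f2 was the other member with a lower mean in the Runt experiment (-0.14), and Rbf and Cdk2 overlapped between the experiments.

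The control discs were the lowest of the 4 groups in mean for 24 of 30 members, and a Runt experiment group was the highest for 28. In 23 members both Runt groups lay above the sens mutants and these above the controls. Setting Runt G163R against each sens group alone gave 22 members with all arrays above the sens mutants (26.2% of all probe sets tested) and 27 with all above the controls (29.9%). Other markers also separated the experiments. Of 10 eye disc markers 3 lay above in all Runt experiment arrays (30%, beside 13.9% of all probe sets tested) and 7 overlapped. The eye disc list means were 10.70 to 10.96 in the Runt experiment, against 10.35 to 10.68 in the sens experiment. Of 7 haemocyte markers 6 lay above in all Runt experiment arrays, with list means of 6.84 to 7.96 in that experiment, against 3.28 to 4.65 in the sens experiment. Of these 7, 4 averaged under 3, in the floor, in sens mutant discs and 2 in control discs. Of 7 antennal markers 3 lay below, 1 (dan) lay above and 3 overlapped, with Dll at 4.61 to 5.97 in the Runt experiment and at 6.64 to 8.84 in the sens experiment. Their part in the separation was not tested.

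**Figure D5:**
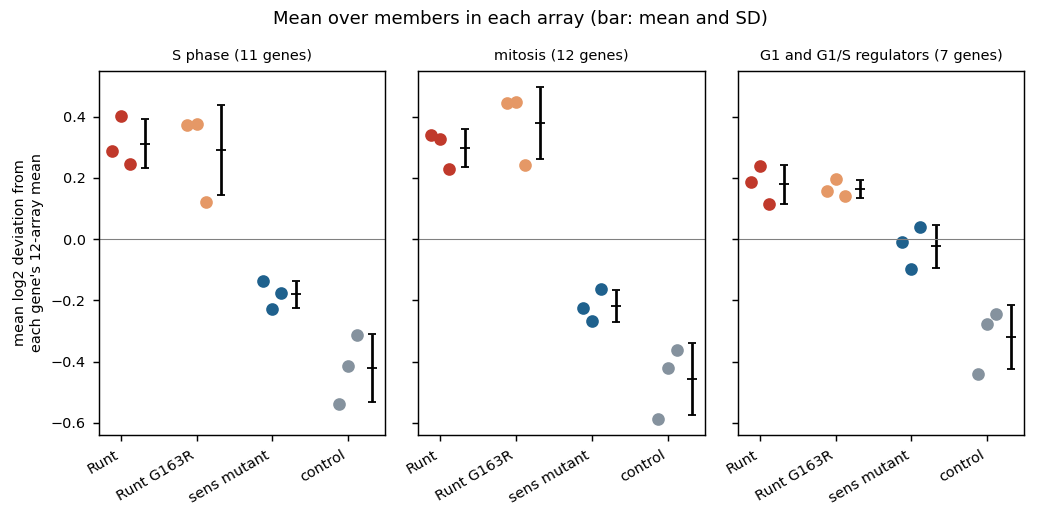
Each point is 1 array's mean, over the members of a role, of the log2 value minus the gene's 12-array mean; bars give group mean and SD (n = 3 arrays). The S phase and mitosis genes fall into 2 levels by experiment with the controls lowest, and the G1 regulators span a smaller range.

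Averaged over members, the deviation from each gene's own mean was 0.31 ± 0.0807 in Runt, 0.29 ± 0.147 in Runt G163R, -0.18 ± 0.0448 in sens mutant and -0.42 ± 0.112 in control discs for the S phase genes (log2, SD, n = 3). For the mitosis genes it was 0.30 ± 0.0609, 0.38 ± 0.118, -0.22 ± 0.0526 and -0.46 ± 0.116 in the same groups. For the G1 regulators it was 0.18 ± 0.0631, 0.16 ± 0.0286, -0.02 ± 0.0703 and -0.32 ± 0.105. The order of the 4 groups was thus shared, apart from Runt and Runt G163R, whose arrays overlapped in all 3 roles.

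Members also moved together between replicates of 1 group. In Runt G163R, replicate 3 was the lowest array for S phase and mitosis genes, with all 11 S phase genes lower in it than in replicate 2 and 10 of 11 lower than in replicate 1. Among probe sets with a mean above 8, 54.2% were lower in replicate 3 than in replicate 2 and 49.6% lower than in replicate 1. In the control group replicate 1 was lowest, below replicate 2 for 26 of 30 members and below replicate 3 for 27. This shift was wider than the members, since replicate 1 was the higher array for only 23.9% and 26.6% of probe sets with a mean above 8 in those comparisons.

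Beyond the 43, 3 further lists of 129 genes were examined, of which 113 had a probe set and 111 were tested. No gene of these lists was called between Runt and Runt G163R, where 3 had an unadjusted limma p under 0.05. In sens mutant discs 9 of 35 other replication genes, 17 of 52 other mitosis genes and 6 of 24 other G1 and checkpoint genes were higher, and none was lower, beside 11.6% of all probe sets tested called higher, or 16.4% of those with a mean above 8. Off chromosome 3 the lists had 15 of 57 genes higher (26.3%, against 11.6% of named probe sets there, or 15.4% of those with a mean above 8). On it 17 of 54 were higher (31.5%, against 15%, or 19.2% with a mean above 8). The median differences were 0.28, 0.29 and 0.19 for the lists in that order. No gene of the lists is a member.

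The replication genes with the smallest p were Slbp, which binds the stem-loop of histone mRNA, Psf2, Psf3, Prim1, Cdc6 and DNAlig1. Slbp stood at 9.22, 9.31 and 9.28 in sens mutant discs, against 8.79, 8.66 and 8.72 in control discs (difference 0.55, limma adjusted p = 0.00104). Prim1, a primase subunit, stood at 6.15, 5.94 and 5.72 in sens mutant discs, against 4.46, 4.72 and 4.94 in control discs (1.23, adjusted p = 0.004 by limma). Cdc6, which loads MCM with the origin recognition complex and Cdt1, stood at 6.07, 5.87 and 6.18 in sens mutant discs, against 5.14, 5.20 and 5.43 in control discs (0.79, adjusted p = 0.00504 by limma). The GINS subunits Psf2 and Psf3 rose by 0.59 and 0.68, and the DNA ligase gene DNAlig1 by 0.70. For Psf2, Cdc6 and Psf3 the mutant arrays overlapped the Runt experiment, as they did for mad2 and Cdk2.

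Among the other mitosis genes pbl, a gene needed for cytokinesis, rose by 0.52 (SE 0.082, limma adjusted p = 0.00255). The kinetochore gene Spc25 rose by 0.46, Det, the fly survivin of the chromosomal passenger complex, by 0.63, the ubiquitin-conjugating enzyme gene vih by 0.41 and the Cdk-binding gene Cks30A by 0.40. Sas-4, a centriole assembly gene, stood at 7.75, 6.93 and 7.55 in sens mutant discs, against 5.95, 5.10 and 6.41 in control discs and rose by 1.59, with the widest spread of these (SE 0.308). In the G1 and checkpoint list lin-52 and mip130, subunits of the complex that Rbf and E2F form with Myb, rose by 0.55 and 0.51. lok, the fly Chk2 kinase, rose by 0.32, p53 by 0.65, mus304, the ATRIP of the fly, by 0.45 and the F-box gene slmb by 0.29.

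Between the experiments the further lists showed the same direction as the members for replication and mitosis. All arrays of the Runt experiment lay above all of the sens experiment for 19 of 35 replication genes and 26 of 52 mitosis genes, and below for none. In the G1 and checkpoint list 7 of 24 lay above and 1, the growth regulator yki, below. Among all probe sets tested these shares were 13.9% above and 9.96% below, and 19.8% of those with a mean above 8 lay above. Ts, thymidylate synthase, averaged 8.33 ± 0.194 over the 6 Runt and Runt G163R arrays, against 6.69 ± 0.439 over the 6 arrays of the sens experiment (SD), and the kinesin gene Klp10A averaged 10.10 ± 0.153 over the 6 Runt and Runt G163R arrays, against 8.66 ± 0.247 over the 6 arrays of the sens experiment. Prim2 differed by 1.23 and Cks30A by 1.12.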

How the data were processed

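Biotin-labelled cRNA of 12 eye disc samples was measured on 1-colour arrays. The authors deposited 1 table of log2 values for 18952 probe sets, 183 of them controls; the scale was judged from the range of the values and their near-equal quantiles. The submitters' processing notes list MAS5, GCRMA and affy without their roles; how background was corrected is not given in the sources used here.

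Genes were named from the platform annotation through gene identifiers in the RefSeq table of Release 6 plus ISO1 MT, used for names and chromosome arms only. All 43 members matched by symbol, and of the further lists 122 of 129 by symbol and 5 by synonym. The members and lists were chosen with earlier results of these data known.

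Kept were probe sets that passed their array's 40th percentile in 3 or more of the 12 arrays. In R 4.3.3, limma 3.58.1 (lmFit, eBayes with an intensity trend) estimated 4 group means from the 12 arrays together. Tests were two-sided, and p-values were adjusted by Benjamini-Hochberg over the 11449 probe sets. The number of arrays limits the precision. The fit was tested on simulated data. Named are all members and up to 6 called genes with the smallest p per further list; those named between the experiments, and tissue markers, were picked after their values were seen. Alternatives changed the filter, the scaling, the variance trend, array weights, the arrays entered (also leaving out each in turn), a replicate block and the probe sets per gene. Scaling by the median of all probe sets and the settings of the comparison between experiments were added after the data were seen.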

Additional observations from a re-analysis of the deposited data

Results flagged for a closer look

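For 4 of 30 members (13.3%) the difference between sens mutant and control discs was larger than that between Runt and Runt G163R discs. The test was of the difference itself (limma, adjusted over all probe sets tested), and it called 6.77% of all probe sets in that direction. Among the 4758 probe sets with a mean above 8 it called 487 in that direction. The difference between the contrasts was 1.09 for mad2 (log2, 95% interval 0.74 to 1.44), 0.83 for Cdk2 (0.41 to 1.24), 0.47 for Cdk4 (0.21 to 0.73) and 0.44 for RnrL (0.21 to 0.67). For mad2 and Cdk2 the sens mutant arrays overlapped those of the Runt experiment, and the controls lay below all other arrays. For RnrL the sens mutant arrays lay below the Runt experiment as well. mad2 is on 3L, Cdk2 on 3R, Cdk4 on 2R and RnrL on 2L. Groups of 3 arrays are too small to single out 1 array by its distance from the others.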

How the results depend on the processing

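With the replicate number as a block, 0 members were called in the Runt comparison, 7 in the sens comparison (8 without the block) and 4 between the contrasts. Over all probe sets tested the block called 1, 1567 and 818 in that order, against 5, 1940 and 1159 without it. ncd and Orc5 lost their calls in the sens comparison under the block (0.31 (adjusted p = 0.111) and 0.48 (adjusted p = 0.0932)), and Orc2 gained one at 0.76 (adjusted p = 0.0217). Between the contrasts Cdk4 lost its call, at 0.47 (adjusted p = 0.0724), and cid gained one, at 0.91 (adjusted p = 0.0384). The numbers pair nothing by the data, since deviations of same-numbered arrays correlated at 0.256, -0.121 and 0.0646 in the Runt experiment and at -0.42, -0.0673 and 0.0756 in the sens experiment. In the Runt comparison 1 member was called with array weights, which called 464 of all probe sets tested in place of 5. The other alternatives called 0 members, also on leaving out any 1 array (0 to 0). In the sens comparison, 5 were called with medians of the kept probe sets subtracted (3 higher, 2 lower), 5 with no filter and 4 with a second quantile normalization. Over all probe sets these settings called 1895, 1518 (of 18769) and 1461, against 1940 in the main fit. Leaving out 1 array of the sens experiment gave 3 to 10 members, and 1218 to 1993 of all probe sets. Between the contrasts 8 were called with array weights, 2 with medians subtracted and 2 with a second quantile normalization (each of the last 2 settings 1 higher and 1 lower). Over all 11449 probe sets tested these settings called 2676, 1099 and 922, against 1159 in the main fit. Leaving out 1 array gave 1 to 6 members, and 697 to 1317 of all probe sets. The median over all probe sets in place of those kept, chosen after seeing the data, gave 11 in the sens comparison and 4 between the contrasts. That median lies in the floor, and with it 2264 and 1435 of all probe sets were called. The count of 21 members above in the Runt experiment was 19 with medians subtracted and 21 to 23 on leaving out 1 array. No called member turned its direction under any alternative run. The other alternatives kept each count within 1.5 times, and the cause of the changes was not tested. Values below about 3 lie in the floor. Near it are cid (log2 values of 2.59 to 4.65) and twe (3.53 to 4.90), which limits both.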
